A study of Homo sapiens with 32 samples.

Results

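The genes described here are 26 named genes of cholesterol synthesis and its control, out of 19970 protein-coding genes on chromosomes 1 to 22 and X in GENCODE version 44. They were taken by name, and all 26 matched 1 gene each. Binding of 4 transcription factors was read from lists of ChIP-seq summits, the positions of highest signal in regions where DNA crosslinked to a protein was recovered with an antibody. A factor was counted at a gene when its list had a summit no more than 500 bp from the gene's 5′ end, the start of the most upstream annotated transcript. Although the set is labelled as synthesis and uptake, it holds no cell-surface receptor for lipoprotein particles, and STARD4, a sterol carrier inside the cell, is its only transport protein.

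HEK293T, an established line of human embryonic kidney origin, gave all 32 samples, in the form of 1 clone that the labels call ZD29. All cells, the untreated controls included, carried ZNF143 fused to an inducible degron tag, which lets a small molecule direct the protein to degradation. Cells were harvested without treatment or after 30 minutes with 50 nM dTAGV-1, for antibodies to the HA tag on ZNF143 (2 samples per treatment), SP1 (4), NRF1 (4) and YY1 (4) and for a mock precipitation (2). Each antibody is represented by 1 list, of 16600 (ZNF143), 126275 (SP1), 39194 (NRF1) or 106658 (YY1) summits, and no list gives a value per sample or treatment. Treated and untreated cells were therefore not compared, no value here has a replicate error, and read depth is unknown.

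Each summit carries a score from the authors' peak caller, on the −log10 scale of a p or q, which starts at 2.00 in every list and is comparable only within its list. Scores are given below with their rank, the share of that list scoring at least as high, so a small percentage is a strong summit. Counts over the 26 genes are set beside the same share over all 19970 protein-coding genes. The members were not tested against the rest, because genes are not replicates. Intervals are 95% Wilson intervals and cover counting error only.

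Cholesterol is built from acetyl-CoA through mevalonate, isoprenoid diphosphates, squalene and lanosterol. When the membrane of the endoplasmic reticulum is low in sterol, SCAP escorts the SREBP proteins away from their INSIG anchors to the Golgi, where they are cut. The released fragment enters the nucleus and binds sterol response elements in the promoters of these genes. SREBP proteins are weak activators alone and are known to act with NF-Y, which binds the CCAAT box, and with SP1, which binds GC boxes.

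SP1 and YY1 each had a summit at 25 of the 26 genes (96.2%, interval 81.1 to 99.3), against 59.1% of all protein-coding genes for SP1 and 57.8% for YY1. NRF1 had one at 23 (88.5%, 71.0 to 96), against 48.3%. ZNF143 had one at 18 (69.2%, 50.0 to 83.5), against 31.7%. All 4 lists had a summit at 17 genes (65.4%, 46.2 to 80.6), against 28.1%, and no list had one at 1 gene, SCAP, against 37.3% of genes without any. These differences were smaller among promoters of like base composition. The 1000 bp around the 5′ end were CpG-rich, with at least 50% G and C and an observed to expected CpG ratio of at least 0.6, at 25 of the 26 genes (96.2%) and at 58.0% of all genes. Among CpG-rich 5′ ends the background rose to 86.4% for SP1, 85.9% for YY1, 74.6% for NRF1 and 49.6% for ZNF143. The part of base composition in the counts was not tested.

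**Figure D1:**
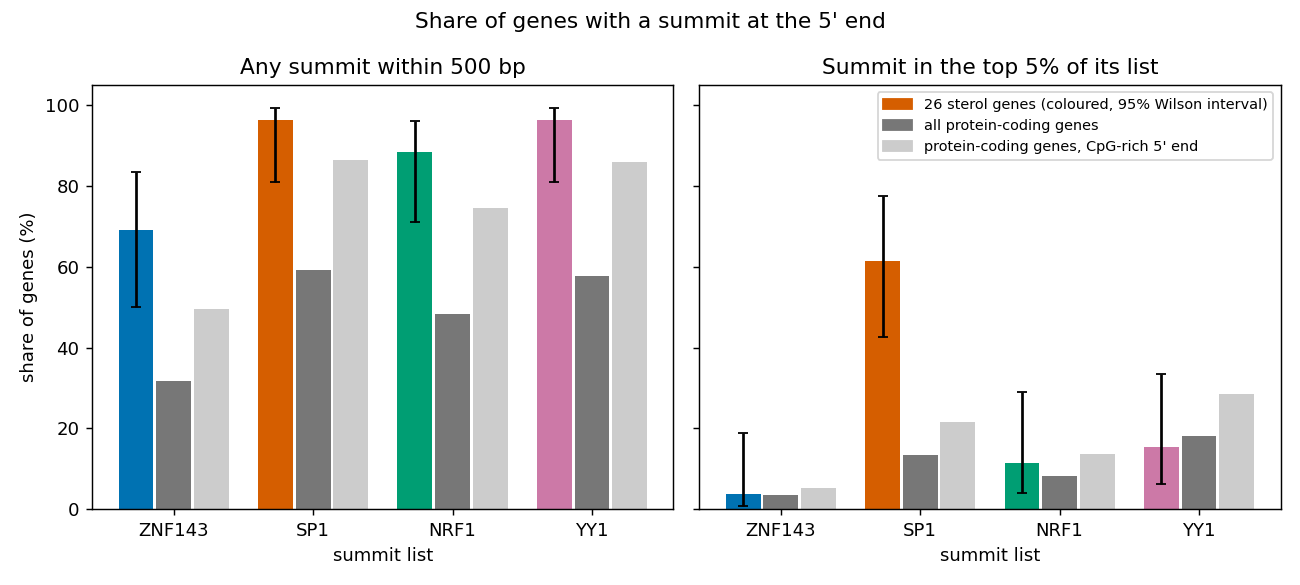
Share of genes (%) with any summit within 500 bp of the 5′ end (left) and with a summit in the top 5% of its list (right), for the 26 sterol genes (coloured bars, 95% Wilson intervals), all protein-coding genes (dark grey) and those with a CpG-rich 5′ end (light grey). For SP1 the share in the top 5% is 61.5% of the sterol genes and 13.5% of all genes, while in this panel the intervals of the sterol genes for the other lists include the share of all genes.

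The strength of the SP1 summits set the sterol genes apart more than their presence. At 16 of the 26 genes (61.5%, 42.5 to 77.6) the highest-scoring SP1 summit was in the top 5% of the SP1 list, against 13.5% of all genes and 21.5% of CpG-rich ones. At 12 of them (46.2%, 28.8 to 64.5) it was in the top 1%, against 2.38%. The median rank over the 25 genes with a summit was 1.17% (quartiles 0.446 and 7.45), and over the 11807 protein-coding genes with one it was 11.3% (5.45 and 22.1). In the other lists the share in the top 5% stood nearer to that of all genes. It was 4 genes (15.4%) for YY1 against 18.1%, 3 genes (11.5%) for NRF1 against 8.29%, and 1 gene (3.85%) for ZNF143 against 3.49%. Among CpG-rich 5′ ends the share of all genes was higher, at 28.4% for YY1, 13.6% for NRF1 and 5.35% for ZNF143, and the members' YY1 share (6.15 to 33.5) was lower than this by value but with an interval that includes it.

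**Figure D2:**
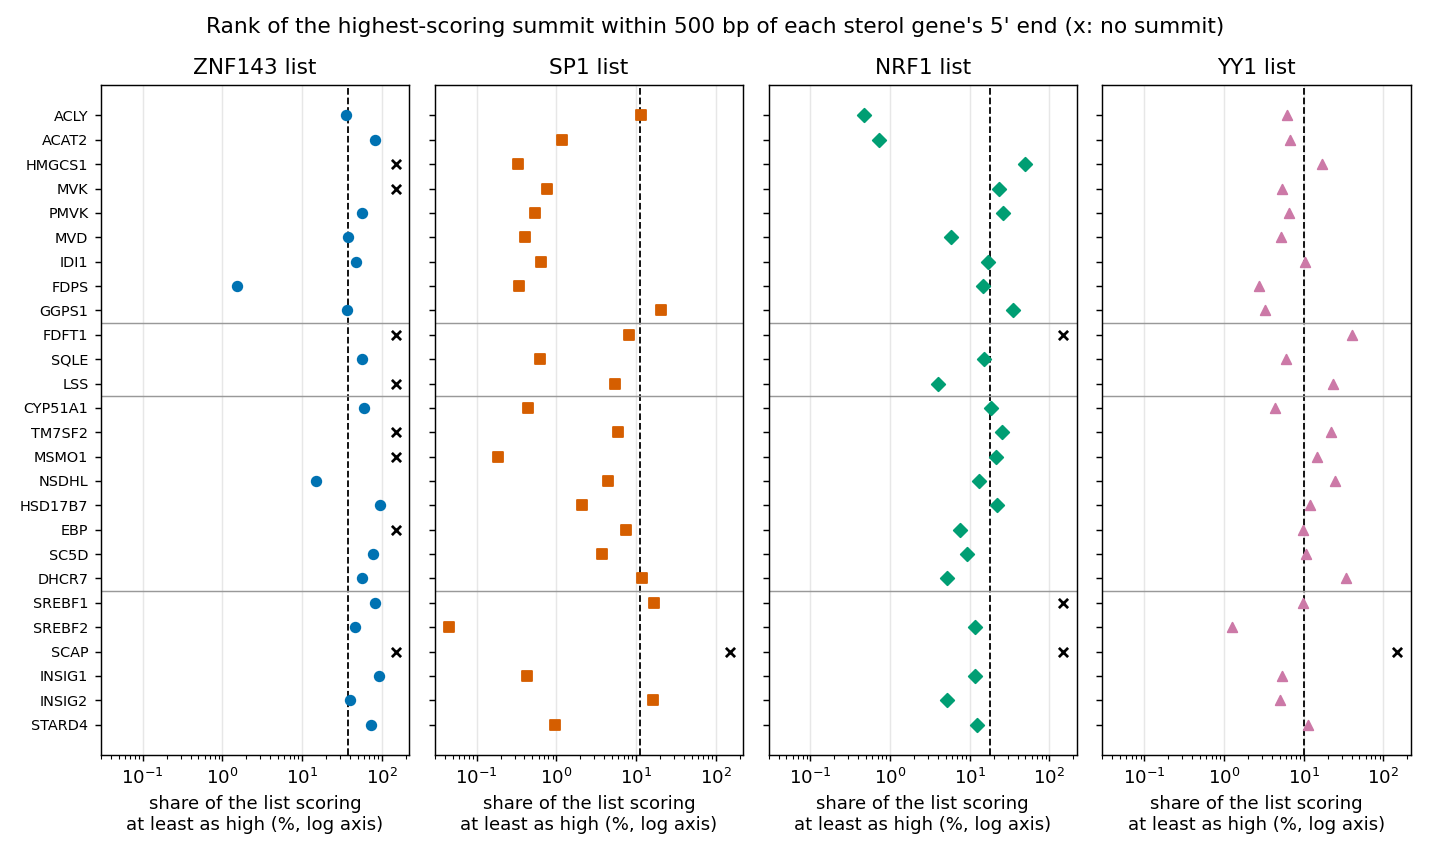
Rank of the highest-scoring summit within 500 bp of each sterol gene's 5′ end, as the share of the list scoring at least as high (%, log axis), with 1 panel per list, genes in pathway order and crosses for genes without a summit. The dashed line is the median of all protein-coding genes with a summit; in the SP1 panel 20 genes lie to the left of it, and 12 lie below 1%.

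Among the controllers of the pathway, SREBF2 had the strongest SP1 summit of the set. This gene (ENSG00000198911.13, chr22:41833105-41907306) encodes the SREBP protein that chiefly drives cholesterol synthesis. Its SP1 summit lay 132 bp upstream of the 5′ end with a score of 6037 (rank 0.0452%), place 23 among the 11807 protein-coding genes with an SP1 summit. INSIG1, the sterol-regulated anchor of SCAP, had an SP1 summit 67 bp upstream with a score of 2429 (0.429%). STARD4 had one 28 bp upstream with a score of 1582 (0.965%). The other controllers scored far lower in the same list, with 116 (16.3%) at INSIG2 and 110 (16.9%) at SREBF1, which encodes the SREBP proteins better known from fatty acid synthesis. The related pairs SREBF2 and SREBF1, and INSIG1 and INSIG2, thus lay far apart in the SP1 list.

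Of the 9 enzymes from acetyl-CoA to the isoprenoid diphosphates, 7 had an SP1 summit in the top 5% of the list, with a median rank of 0.644%. HMGCS1, which makes HMG-CoA and commits carbon to the pathway (ENSG00000112972.15, chr5:43287470-43313512, minus strand), had a score of 2832 (0.328%) 217 bp upstream. FDPS, the farnesyl diphosphate synthase, had a score of 2788 (0.340%) 5 bp downstream. MVD, which decarboxylates mevalonate diphosphate, had 2461 (0.411%), and PMVK, which phosphorylates phosphomevalonate, 2180 (0.544%) at 432 bp upstream. IDI1, the isopentenyl diphosphate isomerase, had 1977 (0.644%), MVK, the mevalonate kinase, 1807 (0.766%), and ACAT2, the cytosolic thiolase, 1424 (1.17%). The exceptions were ACLY, which makes acetyl-CoA from citrate, with a score of 193 (11.5%), and GGPS1, which makes geranylgeranyl diphosphate, with 78.7 (20.6%), the lowest SP1 score of the 25. Both have a canonical transcript that starts elsewhere, described further on.

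The 3 enzymes that make and close squalene were mixed. SQLE, the squalene epoxidase, had an SP1 score of 2009 (0.627%) 153 bp upstream, LSS, the lanosterol synthase, 428 (5.54%), and FDFT1, the squalene synthase, 294 (8.12%). Among the 8 enzymes after lanosterol, 5 were in the top 5%. MSMO1, a methylsterol oxidase (ENSG00000052802.13, chr4:165327667-165343164), had the second-highest SP1 score of the set, 3683 (0.184%), at 134 bp upstream. CYP51A1, the lanosterol demethylase, had 2397 (0.446%) at 117 bp downstream. The keto-reductase HSD17B7 had 953 (2.10%), the desaturase SC5D 596 (3.80%) and the dehydrogenase NSDHL 514 (4.52%). Below them came TM7SF2, a sterol reductase, with 400 (5.99%), the isomerase EBP with 321 (7.45%) and DHCR7, the reductase of the last step, with 179 (12.1%). The 51 bases centred on the HSD17B7 summit occurred at 2 places on chromosomes 1 to 22 and X, so its reads may belong to either. At the other 111 distinct summit positions of the set they occurred once.

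The reference sequence at SP1 summits of 6 members, chosen because they hold the elements named in the background, is given on the sense strand of the gene (hg38). Capitals mark the CCAAT box, read as ATTGG on the opposite strand, and the sterol response element TCACNCCAC or 1 of its 8-base parts, TCACNCCA and CACNCCAC, on either strand. The summit is base 41 in SREBF2 and MSMO1, 31 in HMGCS1 and PMVK, 46 in INSIG1 and 1 in MVK.
SREBF2, chr22:41832933-41833013: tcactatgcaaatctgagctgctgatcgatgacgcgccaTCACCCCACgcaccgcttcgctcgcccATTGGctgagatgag
MSMO1, chr4:165327493-165327573: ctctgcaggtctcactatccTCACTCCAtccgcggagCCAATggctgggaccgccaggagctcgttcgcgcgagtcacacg
HMGCS1, chr5:43313659-43313759: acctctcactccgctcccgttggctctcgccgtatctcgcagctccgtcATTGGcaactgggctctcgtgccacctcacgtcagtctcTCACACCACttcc
INSIG1, chr7:155297664-155297759: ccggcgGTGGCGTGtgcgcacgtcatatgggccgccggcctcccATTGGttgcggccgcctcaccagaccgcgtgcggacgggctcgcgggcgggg
MVK, chr12:109573577-109573606: aatttttATTGGttcgcagttcTCACCCCA
PMVK, chr1:154937121-154937181: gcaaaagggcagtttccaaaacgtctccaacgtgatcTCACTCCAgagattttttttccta
Of these, the HMGCS1, SREBF2, MSMO1, INSIG1 and PMVK stretches lie upstream of the gene's 5′ end. The MVK stretch lies in an intron, and 4 of its bases are annotated as untranslated region, at the start of MMAB on the opposite strand.

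A CCAAT box lay close to the SP1 summit at most members. It was found wholly within 50 bp of the highest-scoring SP1 summit at 16 of 25 genes (64.0%, 44.5 to 79.8), against 22% of all genes with an SP1 summit. The SP1 box GGGCGG was there at 10 genes (40%, 23.4 to 59.3), against 43.4%. In a window of the same size 400 bp to one side of the summit, CCAAT was present at 2 of the 25 members (8.00%) and at 8.38% of all genes. The centre of the box was 1 bp from the summit at MSMO1 and INSIG1, 7 bp at FDPS, 9 bp at MVK and 13 bp at TM7SF2. It was 16 bp away at MVD and SQLE, 17 bp at ACAT2, 21 bp at HMGCS1 and 27 bp at EBP. At SREBF2 and IDI1 it was 28 bp away, at NSDHL 29 bp and at SC5D 32 bp. The farthest were HSD17B7 (44 bp), STARD4 (45 bp), FDFT1 (50 bp) and LSS (68 bp). Over these 18 genes with one within 150 bp the median was 24 bp. Within 25 bp of the summit the count was 9 (36.0%, against 14% of all genes). Within 100 bp CCAAT was at 18 members (72%, against 30.3%) and GGGCGG at 17 (68.0%, against 63.8%), so the counts of the 2 boxes were then nearly equal.

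The CCAAT box also went with the SP1 score across the genome. Of the 475 protein-coding genes whose SP1 summit was in the top 1%, 269 had a CCAAT box within 50 bp (56.6%), against 20.6% of the 11332 genes with a lower-ranked summit. For the SP1 box the shares were 40.4% and 43.5%. Within the sterol genes, CCAAT was present at 10 of the 12 in the top 1% and at 6 of the 13 others, and GGGCGG at 3 of the 12 and 7 of the 13. PMVK and CYP51A1 were the 2 members in the top 1% without one. CCAAT was less common at the members' other summits, at 6 of 18 ZNF143 (33.3%, all genes 13%), 7 of 23 NRF1 (30.4%, 13.3%) and 4 of 25 YY1 summits (16.0%, 7.20%). The search for CCAAT at summits was added after the values were seen.

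**Figure D3:**
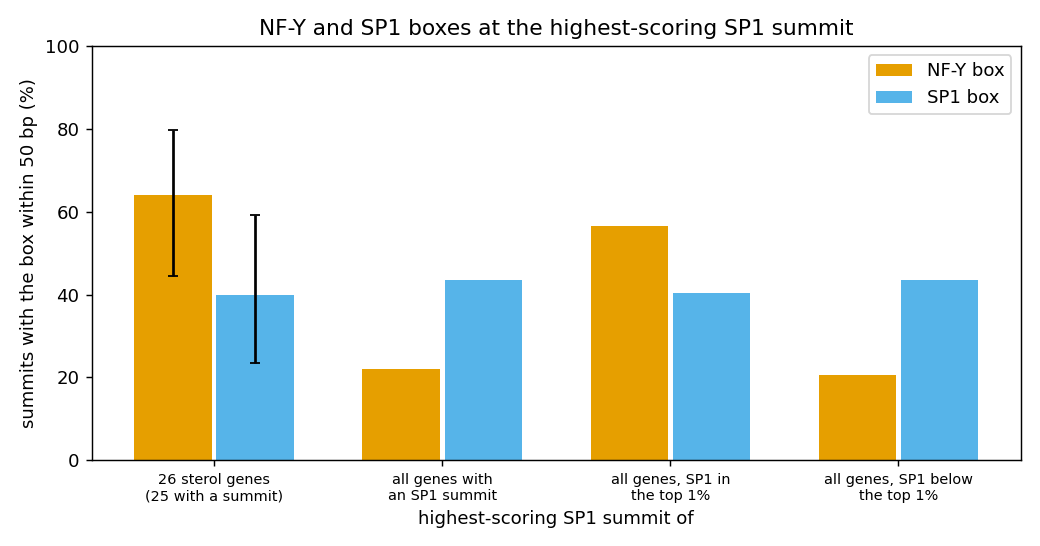
Share of highest-scoring SP1 summits (%) with an NF-Y box (CCAAT) or an SP1 box (GGGCGG) wholly within 50 bp, for the sterol genes (95% Wilson intervals), all protein-coding genes with an SP1 summit, and those genes split by SP1 rank. The NF-Y box is at 64.0% of the sterol genes' summits and at 56.6% of all genes' summits in the top 1%, against 20.6% below it, while the SP1 box stays between 40% and 43.5%.

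The full sterol response element TCACNCCAC was rare. In the promoter window from 250 bp before to 50 bp after the 5′ end it was found at 2 genes, SREBF2 and HMGCS1 (7.69%, 2.14 to 24.1), against 1.27% of all promoters. Its centre was 3 bp from the SP1 summit at SREBF2 and 62 bp at HMGCS1. The shortened forms lay within 100 bp of the SP1 summit at 7 of 25 genes (28%, 14.3 to 47.6), against 4.40% of all genes with an SP1 summit. These were SREBF2, HMGCS1, MVK, PMVK, IDI1, MSMO1 and INSIG1. The SP1 summit was in the top 1% at 7 of these 7, and at 33 of all 519 genes with such a form there (6.36%). The shortened search too was added after the values were seen.

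Of the other letters searched in the same window on both strands, CCAAT was at 17 genes (65.4%, 46.2 to 80.6; all promoters 35.9%) and GGGCGG at 21 (80.8%, 62.1 to 91.5; 52.4%). The E-box CACGTG was at 2 (7.69%; 8.35%), MVK and SC5D. The YY1 consensus AANATGGCG was at 2 (7.69%; 3.51%), SREBF2 and EBP. The NRF1 consensus, GCGC then any base then TGCGC, was at 4 (15.4%, 6.15 to 33.5; 6.98%). Neither part of the ZNF143 consensus, CCCA then any 2 bases then ATGC, or ACTACAA, was in any of the 26 windows (upper limit 12.9%; 1.88% and 3.12% of all promoters). Bases of CACGTG can overlap a sterol response element or another box, and a match of letters is not a bound site.

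NRF1, an activator best known from genes of mitochondria, had a median rank of 12.9% at the 23 members with a summit, against 18.1% at all genes with one. The highest of these summits was at ACLY, 12 bp upstream of the 5′ end (ENSG00000131473.17, chr17:41866917-41930542, minus strand), with a score of 13141 (rank 0.472%, place 180 of 9643 genes). ACAT2 followed with 11394 (0.725%) at 101 bp upstream, and LSS with 4188 (3.97%) at 33 bp upstream. DHCR7 (2830, 5.15%), INSIG2 (2809, 5.18%) and MVD (2273, 5.79%) came just below the top 5%. The lowest scores were 6.26 at HMGCS1 (49.6%) and 10.5 at GGPS1 (35.1%). FDFT1, SREBF1 and SCAP had no NRF1 summit within 500 bp. At SREBF1 the nearest lay 723 bp downstream of the 5′ end with a score of 11796 (0.641%), outside the window.

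The NRF1 consensus lay within 50 bp of the summit at 6 of the 23 members (26.1%, 12.5 to 46.5), against 17.5% of all genes with an NRF1 summit: ACLY, ACAT2, MVD, EBP, DHCR7 and SREBF2. The reference sequence at 3 of these, and at the SCAP summit described further on, shows the consensus in capitals, on the sense strand. The SCAP summit has the highest NRF1 score met at any member. Its stretch holds no exact copy, but it holds acgcatgcgc, which matches the consensus with 1 mismatch.
ACAT2, chr6:159761920-159761949: gccttGCGCCTGCGCacagtgggatgcgcg
MVD, chr16:88663291-88663351: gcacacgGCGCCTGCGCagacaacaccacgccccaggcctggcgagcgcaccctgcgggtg
DHCR7, chr11:71453054-71453114: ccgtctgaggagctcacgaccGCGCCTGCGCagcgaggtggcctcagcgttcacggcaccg
SCAP, chr3:47475983-47476043: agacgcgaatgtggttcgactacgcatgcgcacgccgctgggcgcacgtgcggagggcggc
The centre of the consensus was 14 bp from the summit in ACAT2, 4 bp in DHCR7 and 33 bp in MVD. The stretches of MVD, DHCR7 and ACAT2 are upstream of the gene, with the last in an annotated untranslated region within the span of SOD2. The SCAP stretch is in an intron.

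ZNF143, the protein that carries the degron, was present at 18 members, mostly with low scores. Its median rank there was 56.3% (quartiles 38.3 and 76.8), against 38.0% (13 and 66.0) at the 6323 genes with a ZNF143 summit. Scores were under 30 at 16 of the 18 genes (88.9%), against 54.2% of all genes with a ZNF143 summit, and only 4 ranked above the median gene. With the top 50% of each list alone, 8 of the 26 members had a ZNF143 summit (30.8%), against 19.4% of all genes. The exceptions were FDPS, with 13336 (1.52%) at 70 bp downstream of the 5′ end, and NSDHL, with 413 (15.0%) at 172 bp upstream. The next were ACLY with 27.2 (35.5%), GGPS1 with 26 (36.2%), MVD with 23.6 (38.0%) and INSIG2 with 21.7 (39.4%). The lowest scores were 2.42 at HSD17B7 (96.2%) and 2.98 at INSIG1 (93.1%), close to the lowest score that the list holds.

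The 8 members without a ZNF143 summit were HMGCS1, MVK, FDFT1, LSS, TM7SF2, MSMO1, EBP and SCAP. At 2 of them the nearest summit lay not far outside the window, at 538 bp for MVK (score 109) and 1131 bp for SCAP (79.9). At the others it was between 5829 bp (TM7SF2) and 170423 bp (HMGCS1) away. HMGCS1 and MSMO1, among the 3 strongest SP1 genes of the set, were thus without a ZNF143 summit over more than 100 kb, 137166 bp at MSMO1. The highest-scoring summits nearest the limit of 500 bp were those of YY1 at DHCR7 (478 bp) and STARD4 (459 bp), NRF1 at PMVK (470 bp) and ZNF143 at DHCR7 (454 bp).

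Where ZNF143 was present, an SP1 summit was close to it at a smaller share of the members than of all genes with ZNF143. An SP1 summit lay within 100 bp of the highest-scoring ZNF143 summit at 6 of the 18 members (33.3%, 16.3 to 56.3), against 67.4% of all genes with ZNF143. NRF1 was within that distance at 7 (38.9%, 20.3 to 61.4; 46.8%) and YY1 at 9 (50.0%, 29 to 71.0; 66.0%). The median distance between the highest-scoring ZNF143 and SP1 summits was 196 bp at the 18 members and 55.5 bp at the 6184 genes with both. The counts depend on the distance allowed, with SP1 at 2 members within 50 bp and at 13 within 250 bp. Shares of all genes are not given for these other distances. Of the 18 ZNF143 summits, 16 scored under 30 (88.9%), against 54.2% at all genes with ZNF143. The shares within 100 bp thus set summits of unlike strength side by side, and the part of the score was not tested. At FDPS, the only member in the top 5% of the ZNF143 list, the SP1, NRF1 and YY1 summits were 65, 70 and 19 bp from the ZNF143 summit. At the canonical 5′ ends of ACLY and GGPS1, described further on, ZNF143 was also in the top 5%. The SP1 summit there was 8 bp from it at ACLY and 32 bp at GGPS1.

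A part of the ZNF143 consensus lay within 50 bp of the summit at 1 of 18 members, FDPS (5.56%, 0.988 to 25.8), against 9.84% of all genes with ZNF143. Its sequence is shown with those at the other strong ZNF143 summits of the set, which lie at the canonical starts of ACLY and GGPS1, on the sense strand with ACTACAA, or TTGTAGT on the opposite strand, in capitals.
FDPS, chr1:155308804-155308833: cccgcgggcacattgggagTTGTAGTctaa
ACLY canonical start, chr17:41919100-41919160: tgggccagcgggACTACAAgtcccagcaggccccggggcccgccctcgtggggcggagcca
GGPS1 canonical start, chr1:235328424-235328453: tactctggggccaacgcgcaaatcctcgtc
In FDPS the centre of the box lay 8 bp from the summit, in an annotated untranslated region, and in ACLY 20 bp from it, in an intron. The GGPS1 stretch, also untranslated region, holds neither part of the consensus.

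YY1, which binds many promoters just inside the gene, had a median rank of 9.83% at the members, close to the 10.2% at all genes with a YY1 summit. The highest score was again at SREBF2, 1400 (1.27%) at 75 bp downstream, followed by FDPS with 566 (2.77%), GGPS1 with 461 (3.33%) and CYP51A1 with 338 (4.39%). The lowest were 21.3 at FDFT1 (41.0%) and 28.6 at DHCR7 (34%). The consensus AANATGGCG was within 50 bp of the summit at EBP and SREBF2 (8.00%, 2.22 to 25; all genes 6.56%). At EBP, the sterol isomerase (ENSG00000147155.11), it lay 12 bp from the summit:
EBP, chrX:48521674-48521734: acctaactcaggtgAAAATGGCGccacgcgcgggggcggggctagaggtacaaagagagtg
The stretch is upstream of the gene, on its sense strand with the consensus in capitals. The summit is base 31, and its score was 144 (9.91%).

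The median positions of the 4 lists were not all alike. At the members the median offset of the highest-scoring summit from the gene's 5′ end was −32.0 bp for SP1 (all genes −38.0), −13.0 bp for NRF1 (−29), 22 bp for ZNF143 (−19.0) and 124 bp for YY1 (60.0), with negative values upstream. SP1 was upstream at 17 of 25 members (68.0%), near the 63.2% of all genes with an SP1 summit, and YY1 downstream at 19 of 25 (76.0%), against 61.5%. From the 5′ end of the canonical transcript, the one Ensembl marks as representative, the SP1 median was −134 bp (all genes −73.0). SP1 was upstream of it at 24 of 26 members (92.3%, against 78.7%). The other medians also shifted upstream there, to −118 bp for NRF1 (all genes −66.0), −54.0 bp for ZNF143 (−59.0) and 88.0 bp for YY1 (30.0). ZNF143 was then upstream at 14 of 19 members, and at 4855 of 6955 genes with a ZNF143 summit. YY1 was downstream at 16 of 26 members (61.5%), and at 7054 of 12602 genes with a YY1 summit. YY1 had 2 or more summits in the window at 16 of 25 members (64.0%), against 35.9% of all genes with a YY1 summit. SP1 had a single one at 23 of 25 (92.0%), against 83.3%. At some members the highest-scoring SP1 and NRF1 summits nearly coincided, 3 bp apart at LSS and 5 bp at FDPS. At others they lay far apart, 454 bp at ACAT2 and 456 bp at SREBF2.

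**Figure D4:**
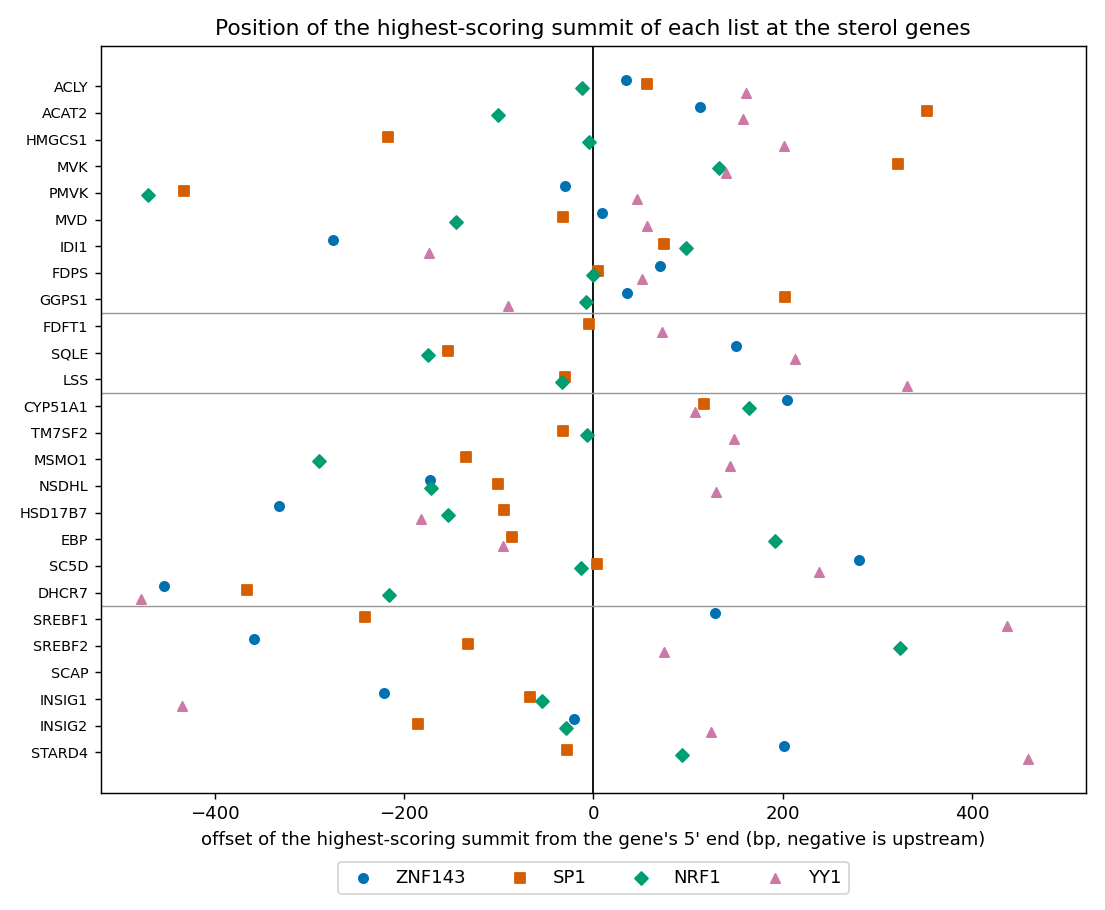
Offset (bp, negative is upstream) of the highest-scoring summit of each list from the 5′ end of each sterol gene, in pathway order. SP1 lies upstream at 17 of 25 genes (68.0%, all genes 63.2%) and YY1 downstream at 19 of 25 (76.0%, all genes 61.5%), and SCAP has no summit of any list.

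The choice of the 5′ end mattered for the 6 members whose canonical transcript starts more than 500 bp from the gene's most upstream end, by 539 bp at MVK, 1185 bp at SCAP, 1220 bp at GGPS1, 4475 bp at DHCR7, 7168 bp at FDFT1 and 11591 bp at ACLY. SCAP, without any summit at the gene's 5′ end, had all 4 lists at the canonical one. There NRF1 scored 13473 (0.434%) at 72 bp upstream, SP1 765 (2.77%), YY1 626 (2.57%) and ZNF143 79.9 (23.5%). The gene's 5′ end of SCAP was also the only one of the 26 that was not CpG-rich, with an observed to expected ratio of 0.378.

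The 2 starts of ACLY differed in their factors. At the gene's 5′ end, where the 5′ end of ODAD4 lies 75 bp away on the opposite strand, NRF1 scored 13141 and SP1 193. At the canonical 5′ end NRF1 scored 33.5 (20.8%), SP1 1886 (0.701%) and ZNF143 7898 (3.41%). At DHCR7 the pattern was alike for these 2 factors, with NRF1 at 2830 and SP1 at 179 at the gene's 5′ end, where NADSYN1 starts 241 bp away, and NRF1 at 45.7 (18.4%) and SP1 at 906 (2.24%) at the canonical one. FDFT1 had an SP1 score of 294 at the first and 1388 (1.22%) at the canonical 5′ end. GGPS1 was stronger at the canonical end in all 4 lists, with ZNF143 at 17258 (0.848%), the highest ZNF143 score met at a member, SP1 at 1008 (1.92%), NRF1 at 6850 (2.28%) and YY1 at 1419 (1.25%). That end is shared with ARID4B and the unnamed protein-coding gene ENSG00000285053, which both start within 500 bp.

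With canonical 5′ ends for every gene, SP1 and YY1 were at 26 of 26 members (all genes 64.5% and 63.1%), NRF1 at 25 (52.8%) and ZNF143 at 19 (34.8%). SP1 was in the top 5% at 21 members (80.8%), against 15.2% of all genes, and in the top 1% at 13 (50.0%), against 2.61%. CCAAT lay within 50 bp of the SP1 summit at 19 of 26 (73.1%), against 22.1%, and GGGCGG at 10 (38.5%), against 44.9%. ZNF143 was in the top 5% at 3 members (11.5%), FDPS, ACLY and GGPS1, against 3.79%.

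**Figure D5:**
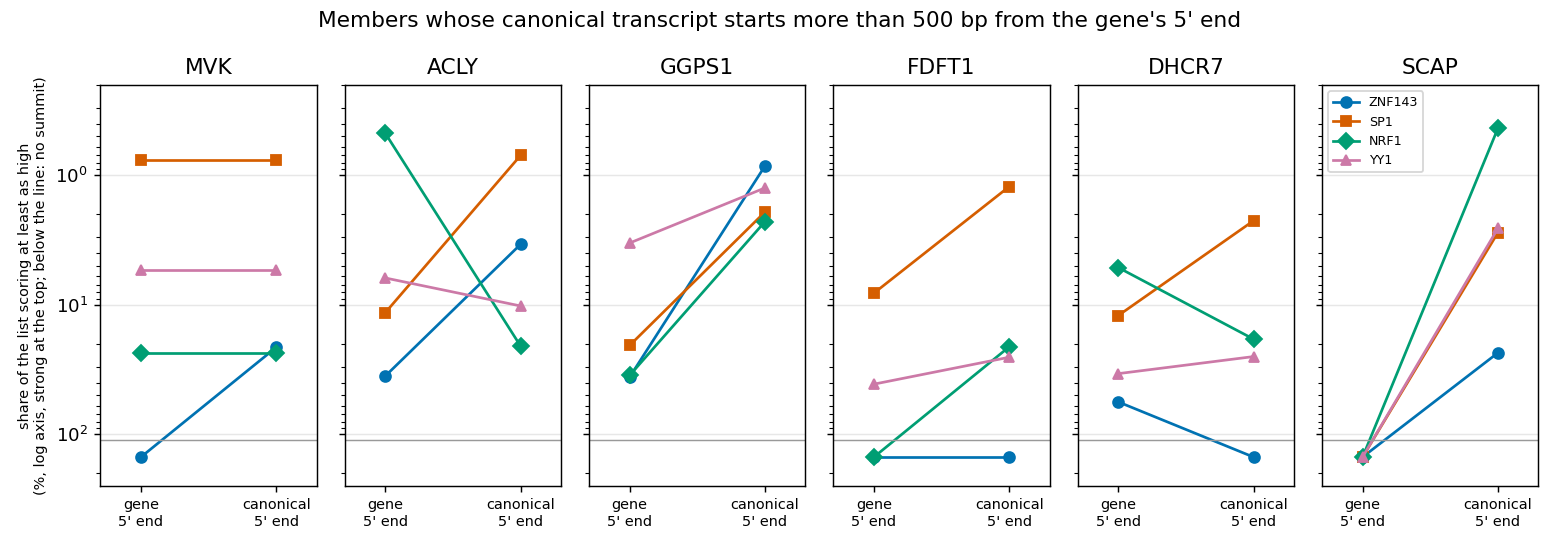
Rank of the highest-scoring summit (share of the list scoring at least as high, %, log axis with strong summits at the top) at the gene's 5′ end and at the canonical 5′ end, for the 6 members where these are more than 500 bp apart; points below the grey line mark no summit. SP1 ranks better at the canonical end of ACLY, GGPS1, FDFT1, DHCR7 and SCAP, and NRF1 ranks worse there at ACLY and DHCR7.

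At 7 members another protein-coding gene starts within 500 bp of the 5′ end, so that a summit cannot be given to one gene alone. These are ACLY (ODAD4), ACAT2 (SOD2, 484 bp), MVK (MMAB, an enzyme of cobalamin metabolism, 325 bp), IDI1 (WDR37, 419 bp), NSDHL (CETN2, 210 bp), DHCR7 (NADSYN1) and EBP (ENSG00000286268, 7 bp, on the same strand). At NSDHL the ZNF143 and NRF1 summits, 1 bp apart at 172 and 171 bp upstream, lay between its own start and that of CETN2. At ACAT2 the 4 highest-scoring summits lay within the annotated span of SOD2. The start of a long noncoding RNA is in the window of 7 members, which are ACAT2, MVD, SQLE, LSS, CYP51A1, TM7SF2 and INSIG1. Shares of all genes are not given for either count of neighbouring starts, so these counts describe the members only. The CYP51A1 summits also lie within 2 unnamed protein-coding genes, ENSG00000285772 and ENSG00000289027.

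Genes of neighbouring pathways were described in the same way, from lists chosen with earlier results of these data known. Of 13 fatty acid synthesis genes, 8 had an SP1 summit (61.5%) and 3 were in the top 5% (23.1%), led by SCD with 1349 (1.27%) and FASN with 541 (4.26%). Of 14 genes that use isoprenoids, 12 had SP1 and 2 were in the top 5% (14.3%), while 7 were in the top 5% of YY1 (50.0%) and 5 of NRF1 (35.7%). Of 18 genes of SREBP processing and sterol handling, 16 had SP1 and 5 were in the top 5% (27.8%). OSBP, a sterol-binding transfer protein, led them with 4162 (0.132%), above all members except SREBF2. Of 17 glycolysis genes, 14 had SP1 and 3 were in the top 5% (17.6%). The median SP1 rank was 11.1% for fatty acid synthesis, 7.64% for isoprenoid use, 7.90% for sterol handling and 11.7% for glycolysis, against 1.17% for the sterol genes. In the ZNF143 list the strongest summits of these 4 lists were at FADS2, a fatty acid desaturase, with 19070 (0.662%) at 225 bp upstream, and FNTB, a subunit of protein farnesyltransferase, with 9011 (2.92%).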

How the data were processed

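Each list holds 1-bp summit positions, a peak name and a score deposited by the authors, a −log10 p-value or q-value from the values and the layout; which of these it is, and, for NRF1 and YY1, which samples the list was called on, is not given in the sources used here. The submitters' processing notes name cutadapt, Bowtie2, SAMtools 1.16.1, MACS3, bedtools and hg38, without settings. Summits on chromosomes 1 to 22 and X were compared with GENCODE 44 and hg38 in Python 3.11.15 (pandas 2.3.3, scipy 1.17.1). For each gene the highest-scoring summit within 500 bp of the 5′ end was taken; ranks are within a list. Consensus letters were matched exactly, on both strands. The search was tested on simulated data with planted summits. CCAAT and shortened-element searches at SP1 summits were added after seeing the data. Depth per sample is unknown, and the numbering of NRF1 and YY1 peaks skips stretches of at least 10 numbers that hold 0 members. Named were members lacking a list, the 3 highest and 2 lowest scores per list, members with TCACNCCAC, shared or shifted 5′ ends, and others by role. Alternatives changed distances, 5′ ends, summits and letters. The members, lists and named-gene rule were chosen with earlier results of these data known.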

Additional observations from a re-analysis of the deposited data

How the results depend on the processing

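No paired analysis was possible because the lists hold no value per sample, and for the same reason no replicate could be left out. Of the 99 values computed under an alternative, 75 stayed within 1.5 times the main count or within the main value's 95% interval, and 24 moved. For presence at the 26 genes the one move was ZNF143 in the top 50% of each list (8, from 18; 30.8%, against 19.4% of all genes). The share of all genes with a summit rose among CpG-rich 5′ ends, to 49.6% (ZNF143), 86.4% (SP1), 74.6% (NRF1) and 85.9% (YY1). The median SP1 offset was −134 bp at canonical 5′ ends. The other median offsets shifted upstream there too, to −118 bp for NRF1, −54.0 bp for ZNF143 and 88.0 bp for YY1. These shifts were counted as staying. Around the ZNF143 summit, SP1 was at 2 members within 50 bp and 13 within 250 bp, NRF1 at 13 within 250 bp, and YY1 at 5 and 18. No shares of all genes are given at these distances, so the counts describe the members only. In canonical windows the sterol response element was at 1 member (3.85%, all genes 1.22%) and CACGTG at 4 (15.4%, all genes 8.75%). The NRF1 consensus was there at 1 (3.85%, all genes 8.42%) and ACTACAA at 2 (7.69%, all genes 2.99%). In windows of 500 bp either side the counts were 7 for CACGTG, 4 for AANATGGCG, 1 for the ZNF143 core and 2 for ACTACAA. Shares of all genes are not given for these wider windows. The factor's own consensus at the summit was at 17 members for SP1 within 100 bp (68.0%, all genes 63.8%). With 1 mismatch it was at 25 for SP1, 13 for NRF1 and 4 for YY1. No share of all genes is given for the search with 1 mismatch, so these counts are not read as a trait of the members. CCAAT within 25 bp of the SP1 summit was at 9 members. The alternatives used fewer summits, other distances, looser letters, the other 5′ end or CpG-rich 5′ ends alone. Why a value moved was not tested. With the top 50% of each list, SP1 stayed at 25 members (all genes 54.5%), NRF1 at 23 (all genes 42.9%) and YY1 at 25 (all genes 52.8%). Lists of unequal length and unknown depth limit every comparison between factors.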
